A study of Rattus norvegicus with 48 samples.

Results

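Gene expression was compared between non-stressed adult male rats of a vinclozolin lineage and of a control lineage in tissue labelled as the CA1 field of the hippocampus. All arrays labelled CA1 and non-stressed were taken, which came to 6 of the 48 arrays of the study, 3 of the vinclozolin lineage (NSt-Vin) and 3 of the control lineage (NSt-Con). The study measured several brain areas of both lineages, with and without restraint stress in adolescence.

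The lineages began with outbred Sprague-Dawley females (the F0 generation) given vinclozolin at 100 mg/kg/day, or its vehicle DMSO, by intraperitoneal injection on embryonic days 8 to 14 of their pregnancies. The animals measured were F3 males killed at 120 days of age. Tissue came from 2 mm punches, and each array held RNA pooled from 4 rats, so the spread between single rats is not seen. Each control rat of the study shared its cage with a rat of the vinclozolin lineage, a pair called a dyad, and arrays of the same number pooled the rats of the same 4 dyads. These sets are called dyad groups 1 to 3, and they pair the arrays. The labels give 1 RNA preparation day and 1 scan day for all 6 arrays. The stressed groups (St-Con and St-Vin, dyad groups 4 to 6) had been restrained for 6 hours a day on 21 days, from postnatal day 23 to 43.

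Vinclozolin is a fungicide whose breakdown products block the androgen receptor, and it has been given to pregnant rats to ask whether descendants that were never exposed differ from controls. CA1 is the field of pyramidal neurons through which the hippocampus sends much of its output. The choroid plexus, the epithelium that makes cerebrospinal fluid, lies in the ventricle next to the hippocampus. Immediate early genes are transcribed soon after neurons fire, and many of them encode transcription factors.

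Levels are log2 values as deposited, so a difference of 1 is a doubling, and every difference is NSt-Vin minus NSt-Con. The medians of the 6 arrays lay between 7.11 and 7.17, and pairs of them correlated between 0.982 and 0.997 across 27342 probe sets. The third St-Con array of CA1 equalled the mean of the other St-Con arrays on every probe set and was left out, so 11 of the 12 CA1 arrays entered the fit that gave the spread. Of the probe sets, 15097 carried 1 gene symbol and only these are named.

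Before any lineage difference, a pair of the 6 arrays stood apart. The 27 measured genes of a choroid plexus list had mean levels of 7.09, 7.88 and 9.15 in NSt-Con 1, 2 and 3, and of 7.28, 7.26 and 7.28 in NSt-Vin 1, 2 and 3. NSt-Con 2 and NSt-Con 3 were thus the richest in choroid plexus transcripts. Transthyretin (Ttr), the thyroid hormone carrier that choroid epithelium secretes, read 9.42, 15.04 and 15.59 in the controls and 11.90, 12.26 and 12.21 in NSt-Vin. NSt-Con 1 was the lowest array for Ttr and NSt-Con 3 the highest. Klotho (Kl) read 6.37, 7.92 and 10.40 against 6.48, 6.50 and 6.33, the chloride channel protein Clic6 6.42, 8.02 and 9.87 against 6.58, 6.63 and 6.71, and the folate receptor Folr1 6.36, 6.92 and 9.02 against 6.44, 6.48 and 6.48. For these 3 genes NSt-Con 1 was close to the NSt-Vin arrays and both other controls lay above all of them. Values without NSt-Con 2 and NSt-Con 3 are given where they matter. They leave NSt-Con 1 as the lone control array, which is assumed to vary like the other groups, and set it against all 3 NSt-Vin arrays without pairing. A choroid score of each array, its mean centred level over the choroid list, was also used as a covariate, alone and together with the dyad group as a block, which keeps the pairing. The score was high in controls only, at -0.31, 0.48 and 1.74 against -0.12, -0.14 and -0.13 in NSt-Vin. It therefore cannot be fully told apart from the lineage. With the score and the block, the lineage difference leans on pairs with like scores, dyad group 1 above all.

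**Figure D1:**
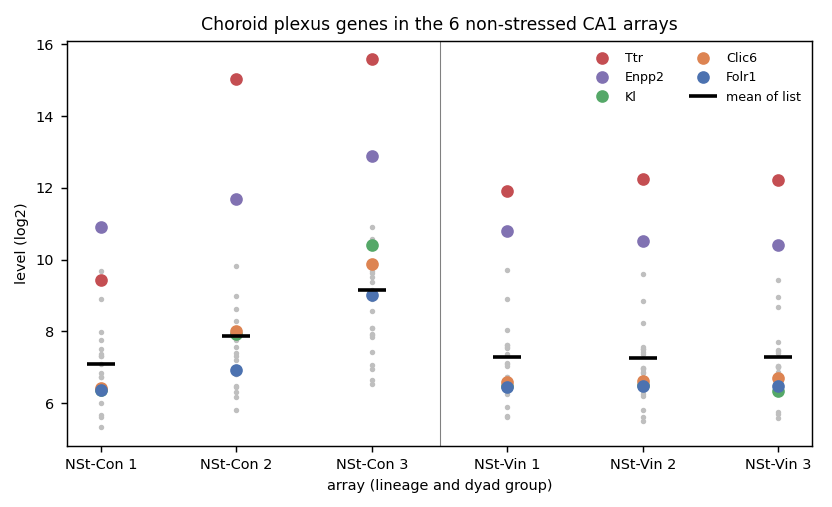
Levels (log2, vertical axis) of the 27 choroid plexus genes in each of the 6 arrays (horizontal axis), with 5 genes in colour, the others as grey dots and the mean of the list as a black bar. The bar stands at 9.15 in NSt-Con 3 and 7.88 in NSt-Con 2, and between 7.09 and 7.28 in the other 4 arrays.

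The tissue label was set against markers of the hippocampal fields. Wfs1, an endoplasmic reticulum protein that marks CA1 pyramidal cells, read 9.94, 10.20 and 8.39 in the controls and 10.01, 10.44 and 9.19 in NSt-Vin. It was above the median level of all probe sets on every array and lowest in dyad group 3 of either lineage. The mean over the 10 measured CA1 markers was 8.45, 8.54 and 7.95 in NSt-Con and 8.55, 8.54 and 7.98 in NSt-Vin, again lowest in dyad group 3. Prox1, a transcription factor of dentate granule cells, read 7.74, 7.74 and 7.83 against 7.60, 8.07 and 9.03, with NSt-Vin 3 the highest array. The CA1 markers were not higher here than in CA3-labelled arrays of the same 6 pools. Of the 10 markers 9 had a higher mean in the CA3-labelled arrays, with a median CA1 minus CA3 difference of -0.61 beside -0.21 over all probe sets. The median was -0.21 for markers of CA3 and CA2 and -0.81 for those of dentate granule cells. The CA3-labelled arrays were scanned on another day, so area and scan day cannot be told apart in these levels. Wfs1 itself was higher in the CA3-labelled array of 4 of the 6 pools. The name CA1 is therefore used as that of the label.

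No probe set differed between the lineages after adjustment for multiple testing. In limma's comparison of the group means 0 of 27342 probe sets passed an adjusted p of 0.05 (0% called), and the smallest adjusted p was 0.993. At an unadjusted p under 0.05 there were 898 (3.28%), of which 611 were higher in NSt-Vin (2.23%) and 287 lower (1.05%). A limma fit with the dyad group as a block also called 0, with a smallest adjusted p of 0.258 and 2235 at an unadjusted p under 0.05 (8.17%), 1409 higher (5.15%) and 826 lower (3.02%). Without dyad group 1 the blocked fit called 1 probe set, that of Ttr, and without dyad group 2 or 3 it called 0. No gene below is therefore said to have changed, and its values describe these 6 pools.

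Dyad groups separated the 6 arrays more than lineages did. Of the summed squared deviations over all probe sets, 61.6% lay between dyad groups, 14.7% between lineages and 23.6% in neither. There are more dyad groups than lineages, so a larger dyad share is likely even in arrays without any structure. The median SD was 0.095 between the NSt-Con arrays, 0.0833 between the NSt-Vin arrays and 0.106 between the 3 dyad differences. Over all probe sets the median difference was 0.01, with 56.3% higher and 42% lower in NSt-Vin. The NSt-Vin array was the higher one in all 3 dyad groups for 16.4% of the probe sets and the lower one for 9.45%. The NSt-Vin arrays lay wholly above the controls for 4.2% and wholly below for 1.91%.

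Among the 8697 probe sets with 1 symbol above the median level, 504 had all 3 NSt-Vin arrays above the controls and 90 had them below. The 8 of these with the largest higher differences were C1ql3, Retsat, Htr1a, Kbtbd11, Cxcl12, Mpped2, Ssx2ip and Bhlhe41. They were chosen for that separation, which is a description here. C1ql3, a secreted protein of the C1q family found at synapses, read 9.33, 9.29 and 8.73 in the controls and 9.63, 9.59 and 9.66 in NSt-Vin. NSt-Con 3 was the outlying array, and the difference of 0.51 ± 0.13 (SE), or 1.42-fold, was 0.30 without the choroid-rich arrays. Retsat, an enzyme of vitamin A metabolism, read 8.78, 8.79 and 9.01 against 9.16, 9.34 and 9.40. The lowest NSt-Vin array was above the highest control. The difference of 0.44 ± 0.11 (SE) lay between 0.39 and 0.54 over the 16 alternatives tried for single genes. These do not include the blocked fits chosen after seeing the data.

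Htr1a, the inhibitory serotonin 1A receptor, read 8.32, 8.60 and 8.47 in the controls and 8.75, 8.74 and 9.16 in NSt-Vin. Its difference was 0.42 ± 0.16 (SE), NSt-Vin 3 was the highest array, and the value was 0.56 without the choroid-rich arrays. Kbtbd11, a Kelch-repeat protein, had the smallest p of all named genes (limma, unadjusted p = 0.000875, adjusted p = 0.993), and read 7.11, 7.08 and 6.77 against 7.30, 7.42 and 7.47. Its controls lay under the median level of 7.14, so it counts among genes above that level only through NSt-Vin. The chemokine Cxcl12, a guide of migrating cells, was nearly constant in the controls at 8.22, 8.21 and 8.17 and read 8.44, 8.47 and 8.89 in NSt-Vin. Ssx2ip, a protein of cell junctions and centrosomes, read 8.95, 8.98 and 8.45 against 9.14, 9.34 and 8.99, so the highest control and the lowest NSt-Vin array nearly met. Mpped2, a metallophosphoesterase, had a difference of 0.37 ± 0.14 (SE), which was 0.22 without the choroid-rich arrays. Bhlhe41, a transcriptional repressor of the circadian clock, was higher by 0.25, 0.35 and 0.49 in the 3 dyad groups.

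Smaller differences had smaller p-values where the arrays of a lineage lay close together. Oaf read 8.32, 8.30 and 8.21 in the controls and 8.51, 8.53 and 8.52 in NSt-Vin, a difference of 0.24 ± 0.06 (SE). Ncs1, a neuronal calcium sensor, read 10.18, 10.23 and 10.06 against 10.39, 10.39 and 10.46, and Polr1h, a subunit of RNA polymerase I, 6.97, 6.99 and 7.01 against 7.34, 7.25 and 7.16. The groups did not overlap in any of the 3. The remaining genes of the 6 smallest p-values, Or2d3c and Vom1r31, are named as odorant and pheromone receptors and lay under the median level on all 6 arrays. Or2d3c read 6.13, 6.21 and 6.11 against 5.84, 5.78 and 5.98, and Vom1r31 6.04, 6.05 and 6.16 against 5.82, 5.79 and 5.87.

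**Figure D2:**
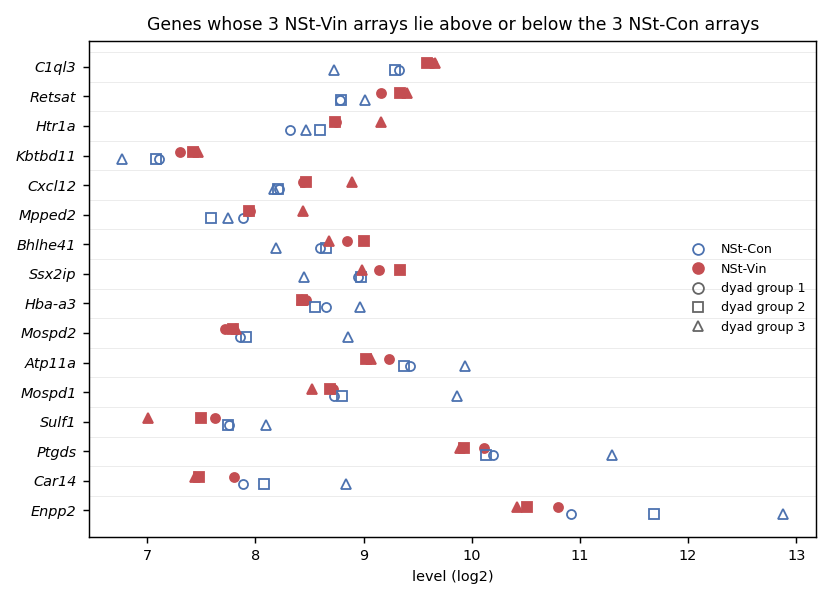
Levels (log2, horizontal axis) of the 16 genes above the median level with the largest differences among those whose groups did not overlap; open blue symbols are NSt-Con, filled red symbols NSt-Vin, and the shape gives the dyad group. In the upper 8 genes the red symbols lie to the right, and in the lower 8 the open triangle of NSt-Con 3 is the rightmost symbol, as in Enpp2 at 12.88.

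Of the 8 genes with the largest lower differences, several are known from the choroid plexus and the membranes around the brain. Enpp2, the enzyme autotaxin, made by choroid epithelium and oligodendrocytes, read 10.92, 11.68 and 12.88 in the controls and 10.80, 10.51 and 10.42 in NSt-Vin. Its difference of -1.25 ± 0.37 (SE) was -0.34 without the choroid-rich arrays, -0.55 with the choroid score as a covariate and -0.38 with the score and the dyad block. Enpp2 stands in the choroid list that makes the score, so with the score it is adjusted in part for itself. Car14, a membrane-bound carbonic anhydrase, read 7.89, 8.08 and 8.84 against 7.80, 7.48 and 7.44, a difference of -0.70, or -0.32 without those arrays. Ptgds, a prostaglandin D synthase of leptomeninges and choroid plexus, read 10.20, 10.13 and 11.30 against 10.11, 9.93 and 9.89, a difference of -0.57, or -0.22 without them. In all 3 genes NSt-Con 3 stood highest. Mospd1 and Mospd2, which share a motile sperm protein domain, had differences of -0.49 and -0.43, and of -0.09 and -0.08 without the choroid-rich arrays. The choroid list as a whole had 27 of 27 members lower, with a median of -0.61, whereas in dyad group 1 alone 22 of the 27 were higher, with a median of 0.07.

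Sulf1, Atp11a and Hba-a3 had differences of -0.49, -0.47 and -0.28, of -0.38, -0.32 and -0.21 without the choroid-rich arrays, and of -0.12, -0.21 and -0.14 with the score and the dyad block. Sulf1, an extracellular sulfatase that trims heparan sulfate and also stands in the choroid list, read 7.76, 7.75 and 8.10 in the controls and 7.63, 7.50 and 7.01 in NSt-Vin, with an SE of 0.16 on its difference. NSt-Vin 3 was its lowest array. Atp11a, a phospholipid flippase, had dyad differences of -0.19, -0.35 and -0.87. Hba-a3, an alpha globin gene of red blood cells, read 8.65, 8.55 and 8.97 against 8.47, 8.43 and 8.43, and the part of blood in the punches was not tested. Outside these 8, Htr2c, the serotonin 2C receptor, which choroid epithelium makes in quantity, read 8.97, 10.00 and 11.50 against 8.85, 9.07 and 9.68. Its difference of -0.96 was 0.23 without the choroid-rich arrays, although the NSt-Vin array was the lower one in all 3 dyad groups.

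Some genes stood out when arrays were compared within dyad groups, and several of them varied more with the dyad group than with the lineage. Lrrc10b read 7.18, 7.90 and 8.08 in the controls and 7.56, 8.28 and 8.64 in NSt-Vin. The groups overlapped, yet the NSt-Vin array was higher by 0.38, 0.38 and 0.56 (limma with the dyad block, adjusted p = 0.258, and without it 0.993). Chrna5, the alpha 5 subunit of nicotinic acetylcholine receptors, read 7.29, 6.71 and 5.87 against 6.82, 6.26 and 5.54, with dyad differences of -0.47, -0.45 and -0.33. Klhl12, a substrate adaptor of a ubiquitin ligase, read 7.77, 7.60 and 7.61 against 8.09, 7.91 and 7.84, and its groups did not overlap. Its dyad differences of 0.32, 0.31 and 0.23 had an SD of 0.05. Or7a38c, Tmem125 and Epb41l4a completed the 6 smallest p-values of the blocked fit, all lower in the 3 dyad groups with means of -0.44, -0.34 and -0.33. Without the choroid-rich arrays, and so without pairing, these 3 were -0.03, -0.16 and -0.01, while Chrna5 was -1.08 and Lrrc10b 0.98. The same 3 with the score and the dyad block were -0.43, -0.24 and -0.30, with Chrna5 at -0.46 and Lrrc10b at 0.37. Or7a38c, named as an odorant receptor, read 5.73, 6.31 and 6.37 against 5.37, 5.77 and 5.96, under the median level throughout.

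Among genes above the median level and of 1 direction in all dyad groups, the 8 highest with the choroid score held fixed, without the dyad block, were Lrrc10b, Rfx3, Rasgrf2, Bhlhe22, Tanc1, Cabp7, Zcchc12 and Galnt17. Rfx3, a transcription factor listed among dentate granule cell markers, read 8.69, 8.89 and 9.31 in the controls and 8.75, 9.28 and 10.17 in NSt-Vin. Rasgrf2, an exchange factor for Ras, read 9.13, 9.28 and 9.98 against 9.17, 9.52 and 10.56. Both were highest in dyad group 3 of either lineage, and so were Bhlhe22, Tanc1, Cabp7, Zcchc12 and Galnt17. The covariate moved the difference of Rfx3 from 0.44 to 0.78, and that of Cabp7 from 0.21 to 0.59. All 8 differences were smaller with the score and the dyad block than with the score alone, at 0.14 for Rfx3, 0.15 for Cabp7, 0.08 for Rasgrf2 and 0.37 for Lrrc10b. The 8 lowest under the same rule were Nxph3, Anxa4, Enpp2, Erbb3, Lpar1, Tyro3, Myo1d and Cd34. Nxph3, a neurexophilin, read 8.31, 8.05 and 6.99 against 8.29, 7.87 and 6.79, far more different between dyad groups than between lineages. Its difference of -0.13 was -0.71 with the score alone and -0.07 with the score and the block, and that of Cd34 was -0.07, -0.50 and -0.04. Chrna5, whose mean level lay under the median, was outside the rule and had -1.01 with the score alone. Erbb3 and Lpar1, receptors found on oligodendrocytes, had dyad differences of -0.21, -0.40 and -0.27 and of -0.23, -0.38 and -0.30. Those of Myo1d, a myosin also made by oligodendrocytes, were -0.28, -0.27 and -0.47.

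Gene lists are described by the number of members on either side of 0 and by their median, beside 56.3% higher, 42% lower and a median of 0.01 over all probe sets. Members of a list are not independent, and in bulk tissue fewer cells of a type and less RNA per cell cannot be told apart. Of 33 lists of cell types and functions, 19 had a median above 0 and 14 below. Over the alternatives tried, 4 lists kept the sign of their median: oligodendrocytes and myelin, astrocytes, GABA genes, and glucocorticoid receptors and targets.

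**Figure D3:**
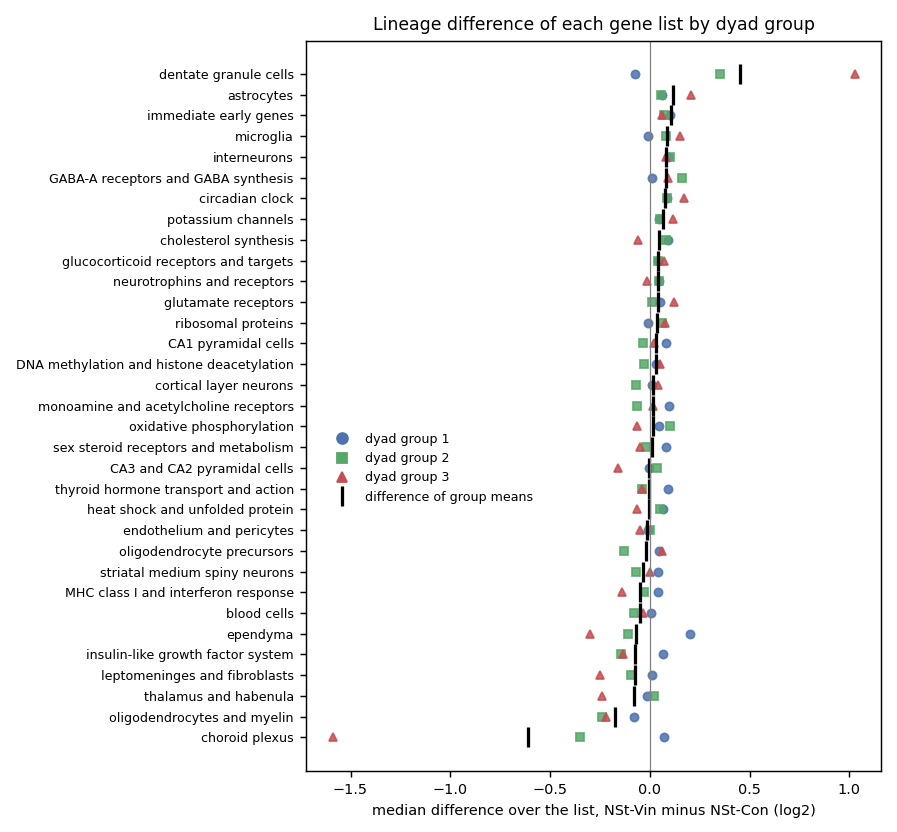
Median difference over each gene list, NSt-Vin minus NSt-Con (log2, horizontal axis), for 33 lists (vertical axis); coloured symbols are the dyad groups and black bars the median of the differences of group means. The choroid plexus list runs from 0.07 in dyad group 1 to -1.59 in dyad group 3, and the dentate granule cell list from -0.08 to 1.03.

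Oligodendrocyte and myelin genes had lower means in NSt-Vin without exception among the 23 measured, and 0 were called. Each gene is read by 1 probe set, and Mbp, at -0.0933, had another at 0.0033. The median was -0.18, with dyad medians of -0.08, -0.24 and -0.22. The NSt-Vin array was the lower one in all 3 dyad groups for 15 of the 23, beside 9.45% of all probe sets. Ermn, a cytoskeletal protein of mature oligodendrocytes, read 11.25, 10.89 and 10.94 in the controls and 10.99, 10.56 and 10.70 in NSt-Vin, with dyad differences of -0.26, -0.33 and -0.24. Mal, a proteolipid of compact myelin, read 11.17, 10.94 and 10.85 against 11.07, 10.57 and 10.51. In both, dyad group 1 was the highest in either lineage and the groups overlapped. Tspan2, a tetraspanin of oligodendrocytes, had a difference of -0.25 ± 0.19 (SE). Transferrin (Tf), the iron carrier made by oligodendrocytes and choroid plexus, had the largest difference, -0.41, and the widest range over dyad groups, -0.03, -0.29 and -0.92. Aspa and Car2, metabolic enzymes of oligodendrocytes, were the 2 members whose groups did not overlap, beside 1.91% of all probe sets. Aspa read 9.05, 8.88 and 8.97 against 8.85, 8.69 and 8.72, and Car2 10.84, 10.83 and 11.07 against 10.75, 10.66 and 10.49. Without the choroid-rich arrays the list's median was -0.30 and 23 of 23 were lower. Its median with the score and the dyad block was -0.12 and 21 were lower.

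Astrocyte genes had the opposite sign. All 14 measured members had a higher mean in NSt-Vin, from 0.03 to 0.17 with a median of 0.12, and the dyad medians were 0.06, 0.06 and 0.21. Of the 14, 8 were higher in all 3 dyad groups, beside 16.4% of all probe sets, and 4 did not overlap between groups, beside 4.2%. These were Fgfr3, Acsbg1, Gjb6 and Aldoc. Fgfr3, a growth factor receptor of astrocytes, read 8.20, 8.09 and 7.96 in the controls and 8.26, 8.25 and 8.25 in NSt-Vin. Acsbg1, an acyl-CoA synthetase, read 10.12, 10.11 and 10.08 against 10.24, 10.23 and 10.20, the same step in each dyad group. Gjb6, a gap junction protein, read 9.20, 9.30 and 9.18 against 9.33, 9.33 and 9.38. The brain aldolase Aldoc differed by 0.09 ± 0.06 (SE). Slc1a3, a glutamate transporter, had dyad differences of -0.01, 0.13 and 0.30, so dyad group 1 showed none. The list's median was 0.11 without the choroid-rich arrays and 0.04 with the score and the dyad block, where 12 of the 14 were higher.

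Immediate early genes had 30 of 33 members higher and 3 lower, and 0 were called. The median was 0.11, with dyad medians of 0.10, 0.07 and 0.06, and 13 members were higher in all 3 dyad groups, beside 16.4% of all probe sets. The list's median was above 0 in 17 of 20 alternatives, and the 3 others were among the fits that did not pair the arrays. With the score held fixed and no dyad block 13 of the 33 were higher and the median was -0.02, and without the choroid-rich arrays the count was 13 and the median -0.03. It lay just below 0 without NSt-Vin 1. With the score and the dyad block, a fit that leans on dyad group 1, 27 of the 33 were higher and the median was 0.13. In the blocked fit without the choroid-rich arrays, which rests on dyad group 1, the median was 0.10.

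Egr1, a zinc finger transcription factor, read 9.68, 9.27 and 8.10 in the controls and 9.87, 9.34 and 8.44 in NSt-Vin. Arc, a synaptic protein induced by firing, read 9.13, 8.76 and 7.85 against 9.37, 8.99 and 8.14. In both, dyad group 3 was lowest in either lineage, as it was for the CA1 markers. Within dyad groups the differences of Arc were 0.24, 0.23 and 0.29, with an SD of 0.03. The group means of Arc differed by 0.25 ± 0.36 (SE), and by -0.30 without the choroid-rich arrays, when NSt-Con 1, the highest control, was the only control left. Arc differed by 0.22 with the score and the dyad block. Nr4a2, a nuclear receptor, was higher by 0.10, 0.29 and 0.31, with a difference of 0.23 that was -0.35 with the choroid score alone and 0.17 with the score and the block. Npas4, a transcription factor of neurons, read 8.03, 7.98 and 7.27 against 8.54, 8.16 and 7.31, so dyad group 1 held the widest difference.

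Jun, a partner of Fos, did not follow the dyad groups in this way and read 8.78, 8.68 and 8.77 in the controls and 9.02, 8.80 and 9.15 in NSt-Vin, with no overlap. Bdnf, a growth factor of activity-dependent plasticity, read 7.51, 7.30 and 7.63 against 7.66, 7.63 and 7.90, higher by 0.15, 0.33 and 0.27. Jun and Bdnf were higher in every alternative tried for single genes, by 0.17 to 0.34 and by 0.16 to 0.34. In the blocked fit without the choroid-rich arrays, which is not among these, Bdnf was higher by 0.15. Fos, Junb and Dusp6, a phosphatase that limits ERK, had differences of 0.16, 0.16 and 0.19, which were -0.10, -0.10 and -0.02 without the choroid-rich arrays and 0.22, 0.25 and 0.30 with the score and the dyad block.

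**Figure D4:**
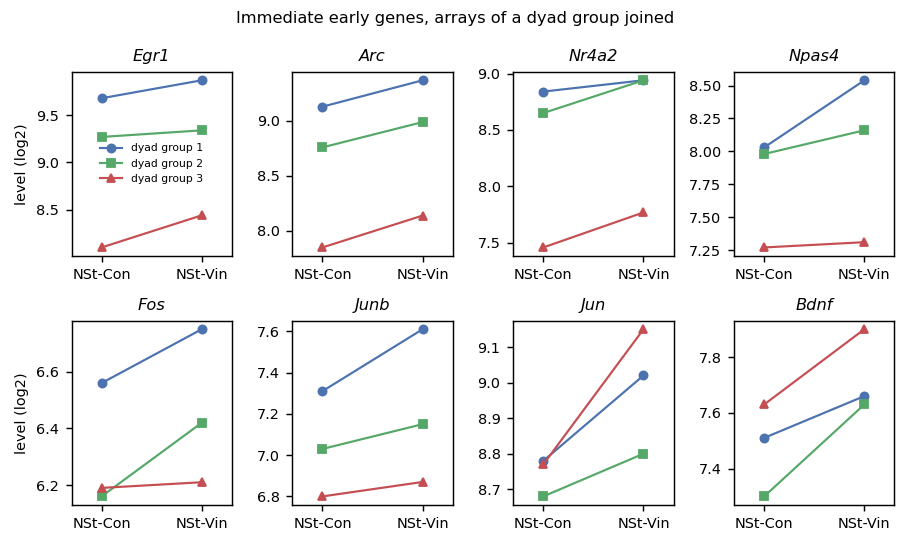
Levels (log2, vertical axes) of 8 immediate early genes in the 6 arrays, with the NSt-Con and NSt-Vin array (horizontal axes) of a dyad group joined by a line. All 8 are among the 13 of 33 members higher in all 3 dyad groups, so every line slopes upward by that choice. In Egr1, Arc and Nr4a2 dyad group 3 lies below the others in both lineages.

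Promoter windows of these genes were searched for the cAMP response element, the site bound by CREB. Of the 33 genes, 25 had a window in the RefSeq table of GRCr8, which covers 250 bases before to 50 after a gene's start, with 30 windows in all. The letters TGACGT, read on both strands and overlapping the full palindrome TGACGTCA, stood in 12 of the 30 windows (40%), each of another gene, and in 7.94% of all 33469 windows. The full TGACGTCA stood in 5 of the 30 (16.7%) and in 1.83% of all windows. Of the 12 genes with TGACGT, 4 were higher in NSt-Vin in all 3 dyad groups, 5 in 2 of them and 3 in 1, and of the 13 genes without it, 4 were higher in all 3. Shown here, with TGACGT on either strand in capitals, are the 200 bases before the start of 3 of the 4 genes that hold the letters and were higher in all dyad groups, the other being Egr1: Plk2, a kinase of synaptic scaling (chr2:43702336-43702535, plus strand), Jund, a member of the Jun family (chr16:18769772-18769971, minus strand), and Bdnf (chr3:116637658-116637857, plus strand). Each is written 5′ to 3′ on the strand of the gene.
Plk2: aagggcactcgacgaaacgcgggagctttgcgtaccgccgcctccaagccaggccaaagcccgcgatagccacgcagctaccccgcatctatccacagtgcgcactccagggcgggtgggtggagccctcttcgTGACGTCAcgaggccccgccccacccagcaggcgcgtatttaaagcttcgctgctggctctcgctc
Jund: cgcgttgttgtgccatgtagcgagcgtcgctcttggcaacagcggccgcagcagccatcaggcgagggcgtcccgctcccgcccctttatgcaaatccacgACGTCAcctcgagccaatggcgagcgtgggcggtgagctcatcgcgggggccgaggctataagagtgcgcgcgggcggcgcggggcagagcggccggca
Bdnf: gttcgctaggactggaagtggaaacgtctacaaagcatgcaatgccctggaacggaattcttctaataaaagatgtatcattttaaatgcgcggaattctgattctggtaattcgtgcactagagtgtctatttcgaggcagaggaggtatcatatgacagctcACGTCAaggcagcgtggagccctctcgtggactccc
The stretch of Plk2 holds the full palindrome, and that of Jund lies before the bases printed. The mean differences of Plk2, Jund and Bdnf were 0.09, 0.05 and 0.25, so these genes with the letters did not share 1 size of difference. Jund read 7.20, 7.16 and 7.05 in the controls and 7.26, 7.21 and 7.10 in NSt-Vin, and Plk2 10.61, 10.48 and 9.71 against 10.67, 10.64 and 9.77. The groups overlapped in both.

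Circadian clock genes had 15 of 16 members higher and a median of 0.08, with 7 higher in all 3 dyad groups. The median was -0.03 with the choroid score held fixed and -0.07 without the choroid-rich arrays, so the list's sign was not kept. Its median with the score and the dyad block was 0.08. Beside Bhlhe41, Cry1, a repressor at the core of the clock, read 6.72, 6.52 and 6.57 in the controls and 6.97, 6.83 and 6.77 in NSt-Vin. Its groups did not overlap, and the difference was 0.25 ± 0.09 (SE) and between 0.14 and 0.31 over the alternatives tried for single genes. Dbp, an output transcription factor of the clock, was higher by 0.24, 0.14 and 0.22. Nr1d1, a repressor in the same loop, had a difference of 0.19 that was 0.00 with the score alone and 0.11 with the score and the block.

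GABA-A receptor and GABA synthesis genes had 15 of 17 members higher and a median of 0.08, with dyad medians of 0.01, 0.16 and 0.09. Without the choroid-rich arrays 9 of 17 were higher, with a median of 0.04. Gabrg1, a receptor subunit, had the largest difference and read 10.13, 9.96 and 9.96 in the controls and 10.10, 10.26 and 10.48 in NSt-Vin. Gad1, an enzyme that makes GABA, read 10.00, 9.80 and 9.88 against 9.98, 10.06 and 10.12. In both genes the arrays of dyad group 1 nearly coincided and the difference lay in dyad groups 2 and 3.

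Genes of the stress and sex steroid axes lay nearer the background. Of 23 glucocorticoid receptors and targets, 17 were higher and 6 lower, with a median of 0.04. The glucocorticoid receptor gene Nr3c1 read 9.71, 9.46 and 9.03 in the controls and 9.63, 9.40 and 9.22 in NSt-Vin, a difference of 0.02 ± 0.18 (SE). Fkbp5, a chaperone that curbs the receptor and is induced by it, read 8.44, 8.52 and 8.79 against 8.61, 8.86 and 8.87, higher by 0.17, 0.34 and 0.08. Hsd11b1, which regenerates active glucocorticoid, had dyad differences of 0.00, 0.22 and 0.28. Of 16 sex steroid genes, 10 were higher and 5 lower, with a median of 0.01. The estrogen receptor gene Esr1 read 5.65, 5.73 and 5.61 against 5.72, 5.80 and 5.69, under the median level throughout.

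Genes of DNA methylation and histone deacetylation, enzymes that set marks on chromatin, divided 14 higher to 11 lower of 25, with a median of 0.03. The maintenance methyltransferase gene Dnmt1 differed by 0.07 ± 0.11 (SE), and the de novo methyltransferase gene Dnmt3a by -0.05 ± 0.10 (SE). Each SE exceeded the size of its difference. Dnmt3a read 7.16, 7.23 and 6.91 in the controls and 7.16, 6.89 and 7.10 in NSt-Vin, with dyad differences of either sign. Receptors for serotonin, dopamine, noradrenaline and acetylcholine divided 17 to 15 of 32, from -0.96 for Htr2c to 0.42 for Htr1a. The medians of these chromatin and receptor lists lay just below 0 under quantile normalization, so neither kept its sign. Without the choroid-rich arrays the chromatin list had a median of -0.04, with 9 higher and 15 lower. With the choroid score alone the receptor list had -0.04, with 13 higher and 19 lower. With the score and the dyad block the medians were 0.04 and 0.03.

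Markers of other cells moved beside these lists. Dentate granule cell markers had 5 of 6 members higher, with dyad medians of -0.08, 0.35 and 1.03. With the score and the dyad block 3 of 6 were higher, with a median of 0.01. C1ql2, a synaptic protein of granule cells, read 7.46, 7.54 and 7.72 in the controls and 7.39, 7.96 and 8.98 in NSt-Vin, and NSt-Vin 3 was again the highest array. Of 16 genes of leptomeninges and fibroblasts 12 were lower, and 4 were without the choroid-rich arrays. Ogn, a matrix proteoglycan among them, read 7.26, 7.78 and 9.08 against 7.23, 7.24 and 7.43 and so was high in the same arrays as the choroid list. The part of granule cells and leptomeninges in the lineage differences was not tested.

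The lineage difference was then set against that of stressed rats in the same area. The difference of differences called 0 of 27342 probe sets in limma without the dyad block, with 1124 at an unadjusted p under 0.05 and a smallest adjusted p of 0.509. With the dyad block limma called 135 (0.494%), 73 with a more positive difference without stress and 62 with a more negative one. That count rests on 2 stressed pairs. It was 0 without dyad group 4, 0 without dyad group 5, 0 without the choroid-rich arrays and 1 without dyad group 2. The St-Vin arrays were scanned on another day than the St-Con arrays used, so among the stressed rats the scan day and the lineage cannot be told apart. Of the 86 called probe sets with 1 symbol, 76 had a smaller difference without stress than with it, and in 49 the 3 non-stressed dyad groups shared 1 sign.

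Chrna5 was among the 86, with dyad differences of -0.47, -0.45 and -0.33 without stress and of 0.98 and 0.64 in the stressed pairs (limma with the dyad block, adjusted p = 0.0141). Lrrc10b had 0.38, 0.38 and 0.56 against -0.41 and -0.43 in the same limma fit, with the same adjusted p. St-Vin 3 had no control array left to pair with and did not count in the blocked fit. It read 6.95 for Chrna5, where St-Con read 6.96 and 7.32. For Lrrc10b it read 7.82, where St-Con read 7.28 and 7.43, so in neither gene did it go the way of the stressed pairs. Prkg1, a cGMP-dependent kinase singled out after its values were seen, had 0.24, 0.31 and 0.24 against -0.85 and -0.68. Of the myelin list 6 of the 23 members were called, beside 0.494% of all probe sets: Mag, Cnp, Mal, Ermn, Cldn11 and Tspan2. Other lists held called members too, with 3 of 9 markers of cortical layer neurons and 2 of 10 CA1 markers. Of the immediate early genes 4 of 33 were called: Nr4a1, Nr4a2, Dusp1 and Ier5. The GABA list had 2 of 17 and the glutamate receptor list 2 of 26, and some further lists had 1. None of these calls stood without dyad group 4 or without dyad group 5. All 23 myelin genes had lower means without stress and higher ones with it, with medians of -0.18 and 0.19. The means with stress include St-Vin 3, which for Ermn read 10.97, between the St-Con arrays at 10.91 and 11.21. Mag, an adhesion molecule of myelin, had dyad differences of -0.09, -0.25 and -0.19 against 0.53 and 0.42. Without the dyad block the smallest p of the difference of differences belonged to Sh3bp4, an adaptor of endocytosis, at -0.26 without stress and 0.46 with it (limma, adjusted p = 0.509). Or2d3c and Tada2b, a subunit of histone acetyltransferase complexes, were next (limma, adjusted p = 0.965 for each).

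**Figure D5:**
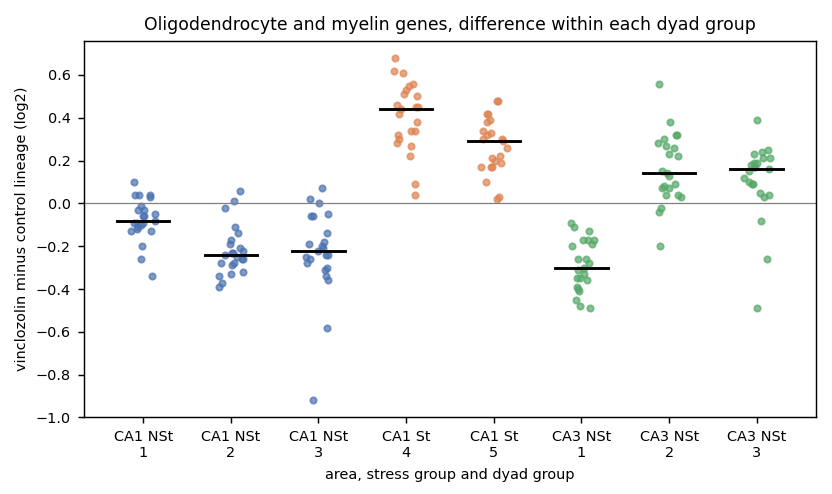
Difference between the vinclozolin and control array of each dyad group (log2, vertical axis) for the 23 oligodendrocyte and myelin genes (points), by area, stress group and dyad group (horizontal axis); bars are medians. The medians are -0.08, -0.24 and -0.22 in non-stressed CA1, 0.44 and 0.29 in stressed CA1, and -0.30, 0.14 and 0.16 in non-stressed CA3.

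The same 6 pools also supplied CA3-labelled arrays, and the lineage difference was compared between both areas within pools. No probe set was called (limma, smallest adjusted p of 0.9999, 0% called), with 417 at an unadjusted p under 0.05, and 0 were called with the dyad block. The 3 smallest p-values belonged to Serpinb3, Fam50a and Sh3bp4, with differences of 0.12, 0.13 and -0.26 in CA1 and -0.28, -0.30 and 0.13 in CA3. Serpinb3 lay under the median level on all 6 CA1 arrays. Myelin genes divided 12 higher to 11 lower in CA3, and astrocyte genes 10 to 2. The CA3 difference of Retsat was 0.39, that of Htr1a 0.28 and that of C1ql3 0.22, all of the sign seen in CA1. The third NSt-Con pool was choroid-rich in CA3 as well, where Ttr read 14.49 and Kl 10.65.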

How the data were processed

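RNA pools were hybridised to gene arrays. The authors deposited log2 values per probe set, made with RMA and Partek per the submitters' processing notes, which name no versions here. RMA fits all arrays together and compresses differences of dim probe sets. Probe sets were named through GEO's platform annotation, matched by gene number to GRCr8. Of 27342 probe sets, 323 with several symbols and 11922 with none were tested and not named, and no probe set coordinates are printed, as no source here names their build.

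Group means were compared in limma 3.58.1 (R 4.3.3, statmod 1.5.0) over 11 CA1 arrays in 4 groups, with eBayes and Benjamini-Hochberg adjustment over all probe sets. The interaction with stress used the same fit. The CA1 minus CA3 comparison used differences within pools. P-values measure the spread between pools, and the number of arrays limits the precision. The scripts were checked on simulated data. The third St-Con array of CA1 was left out because it equalled the mean of the others on 100% of probe sets (tolerance 0.0051).

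Array numbers pair the lineages because the labels say that they mark the same dyads. Deviations from the group means of same-numbered non-stressed arrays correlated at 0.521, 0.115 and 0.535. A choroid score, the mean centred level of the choroid list, served as a covariate. Alternatives were a filter on dim probe sets, the dyad block, another eBayes, quantile normalization, all 12 arrays, the 6 arrays alone, the score, and leaving out arrays.

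The members and lists were chosen with earlier results of these data known. Genes were named by a rule: the 6 smallest p-values without and with the block, the 8 highest and 8 lowest differences among genes above the median level of all probe sets, without overlap and, with the score held fixed, of 1 sign in all dyad groups, leading members of lists, control genes, and the 3 smallest p-values of the interaction and of the area comparison. Only probe sets with 1 symbol were named, and some list members were named after their values were seen. Of several probe sets of a gene, the one with the highest mean stands for it in lists.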

Additional observations from a re-analysis of the deposited data

Results flagged for a closer look

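Oligodendrocyte and myelin genes had a median difference of -0.18 without stress and 0.19 with stress in CA1. The 3 non-stressed dyad groups had medians below 0 and both stressed pairs had medians above 0, at 0.44 and 0.29. St-Vin 3, which had no pair, entered the median of 0.19 and not those of the pairs. It read 10.97 for Ermn, where St-Con read 10.91 and 11.21. For Car2 it read 10.62, where St-Con read 10.61 and 10.93. In both genes it lay between the St-Con arrays, and the other members are not given for this array. GABA-A receptor and GABA synthesis genes had medians of 0.08 without stress and -0.0467 with stress. Their dyad medians were 0.01, 0.16 and 0.09 without stress and -0.03 and -0.01 in the stressed pairs, so several lay close to 0. Neither difference between stressed and non-stressed rats was tested over its list, and the stressed lineages were scanned on different days.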

How the results depend on the processing

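No gene was called in the lineage comparison in the unblocked fits tried, and with the replicate block that pairs dyads the count was 0 beside 0. In blocked fits chosen after seeing the data it was 1 without dyad group 1 and 0 without dyad group 2, without dyad group 3 and without the choroid-rich arrays. The interaction with stress, at 0, became 135 with the replicate block, 358 with the block and the choroid score, and, in blocked fits chosen after seeing the data, 94, 1, 189, 0 and 0 without dyad group 1, 2, 3, 4 and 5. The number of lists with a median above 0, 19 of 33, lay between 11 and 23 when single arrays were left out. These genes turned the sign of their difference, and none was called. With the choroid score as a covariate the values were Arc -0.28, Dnmt1 -0.083, Dusp6 -0.043, Egr1 -0.47, Folr1 0.015, Fos -0.0099, Junb -0.037, Jund -0.019, Npas4 -0.11, Nr1d1 -0.0033, Nr3c1 -0.26, Nr4a2 -0.35, Plk2 -0.29, Ttr 1.04 and Wfs1 -0.34. With the score and the block they were Folr1 0.031, Mospd1 0.034, Nr3c1 -0.076, Prox1 -0.033 and Ttr 0.79. Without the choroid-rich arrays they were Arc -0.30, Clic6 0.22, Dnmt1 -0.093, Dusp6 -0.02, Egr1 -0.46, Folr1 0.11, Fos -0.10, Htr2c 0.23, Junb -0.10, Jund -0.01, Kl 0.067, Npas4 -0.027, Nr3c1 -0.29, Nr4a2 -0.29, Ogn 0.04, Plk2 -0.25, Ttr 2.70 and Wfs1 -0.06. Under quantile normalization the value was Nr3c1 -0.022. Leaving out single arrays gave Anxa4 from -0.57 to 0.097, Arc from -0.11 to 0.60, Cabp7 from -0.043 to 0.56, Cd34 from -0.39 to 0.25, Dnmt1 from -0.053 to 0.17, Dnmt3a from -0.14 to 0.03, Egr1 from -0.26 to 0.59, Junb from -0.037 to 0.33, Npas4 from -0.025 to 0.59, Nr3c1 from -0.17 to 0.17, Nr4a2 from -0.20 to 0.62, Nxph3 from -0.53 to 0.30, Plk2 from -0.18 to 0.39, Rasgrf2 from -0.12 to 0.58, Tyro3 from -0.35 to 0.14 and Wfs1 from -0.19 to 0.71. The cause was not tested. Ttr and Folr1 stand in the choroid list that makes the score, so with the score they are adjusted in part for themselves. The number of arrays, 3 pools a lineage, limits the precision, and signal over background was not analysed here.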

Other observations

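Among lists not yet described, interneuron genes had 15 of 17 members higher, with a median of 0.08 and dyad medians of 0.09, 0.10 and 0.08. Potassium channel genes had 26 of 34 higher, with a median of 0.07, and glutamate receptor genes 19 of 26, with a median of 0.04. Microglia genes had 10 of 13 higher and 2 lower, with dyad medians of -0.01, 0.08 and 0.15. Genes of the insulin-like growth factor system, some of which choroid epithelium makes, had 11 of 12 lower in the group means, whereas 9 of the 12 were higher in dyad group 1.

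Cholesterol synthesis genes had 14 of 16 higher, with dyad medians of 0.09, 0.08 and -0.06, so dyad group 3 was of the other sign. Oxidative phosphorylation genes divided 43 to 23, with dyad medians of 0.05, 0.10 and -0.07, and a list median that turned below 0 under quantile normalization. Ribosomal protein genes had 48 of 68 higher, with a median of 0.04. Interferon and MHC class I genes had 14 of 19 lower, with dyad medians of 0.04, -0.03 and -0.14. None of these lists held a called gene, at 0% called over all probe sets.

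Without the choroid-rich arrays, a comparison of NSt-Con 1 with all NSt-Vin arrays, the median of each list in the paragraphs above changed sign. Potassium channel genes then divided 10 higher to 24 lower, glutamate receptor genes 11 to 15, ribosomal protein genes 12 to 54, and interneuron genes 8 to 9. With the choroid score alone, ribosomal protein genes divided 20 to 48 and potassium channel genes 14 to 20. With the score and the dyad block, 21 of 34 potassium channel, 18 of 26 glutamate receptor, 41 of 68 ribosomal protein and 16 of 17 interneuron genes were higher.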
